A study of Rattus norvegicus with 2 samples.

Results

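The 10 genes of leucine-rich synaptic adhesion proteins examined here were followed through a gene-trap screen in rat cells: Lrfn1, Lrfn2, Lrfn3, Lrfn4, Lrfn5, Lrrc4, Lrrc4b, Lrrc4c, Lrrtm1 and Lrrtm2. They were found by symbol among the 18156 genes of the deposited insertion table. Of the 10, 9 matched exactly and 1, spelled LRRTM1 in the table, matched when the case of letters was ignored.

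The screen used RAH-1, a rat haploid embryonic stem cell (haESC) line carrying a GFP reporter of Rex1, a gene that is active in naive pluripotent cells and shut down as they differentiate. The cells of both groups had been mutagenised with PB-SA-RFP, a piggyBac transposon with a splice acceptor and a red fluorescent protein, and sorted for both colours. The library after screening (PB-Diff) came from mutant cells taken through random differentiation in embryoid bodies, sorted for GFP and replated in 2i/LIF, the medium that keeps them naive, and the library before screening (PB-Ctrl) from mutant cells that had not been screened. The comparison asked in which genes insertions became more or less frequent among cells that had kept the Rex1 reporter. Each group had 1 library from 1 cell line, so no difference below has a replicate check, no test was made, and every statement compares these libraries.

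The proteins of these genes sit in the membrane of neurons and hold the presynaptic and postsynaptic sides of a synapse together through leucine-rich repeats outside the cell. Lrfn proteins, also called SALMs, bind the presynaptic receptor phosphatases or each other, and some of them carry a tail that binds the scaffold PSD-95. Lrrc4, Lrrc4b and Lrrc4c are the netrin-G ligands, which bind netrin-G proteins or the phosphatase LAR, and Lrrtm proteins bind neurexins. They are known from neurons, and expression was not analysed here. By qPCR, the study measured its most often trapped genes, Lrfn3 among them, in wild-type rat embryonic stem cells and in RAH-1. In the deposited annotation, all 10 genes carried a leucine-rich repeat term, 8 an immunoglobulin term (not LRRTM1 or Lrrtm2) and 5, the Lrfn genes, a fibronectin type III term.

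PiggyBac inserts at the letters TTAA, which read the same on both strands. The upstream windows of Lrfn4 and Lrrc4 are shown because Lrfn4 lost its insertions and Lrrc4 had none in either library. Lrrtm2 also had none, and its window, with 1 TTAA 122 bases before the start, is not shown. The windows hold the 250 bases before the start of transcription, from RefSeq, build GRCr8. They are given 5′ to 3′ on the gene's strand, with TTAA in capitals. That of Lrfn4 lies at chr1:211321273-211321522 on the minus strand, and that of Lrrc4 at chr4:58402539-58402788 on the minus strand.
Lrfn4: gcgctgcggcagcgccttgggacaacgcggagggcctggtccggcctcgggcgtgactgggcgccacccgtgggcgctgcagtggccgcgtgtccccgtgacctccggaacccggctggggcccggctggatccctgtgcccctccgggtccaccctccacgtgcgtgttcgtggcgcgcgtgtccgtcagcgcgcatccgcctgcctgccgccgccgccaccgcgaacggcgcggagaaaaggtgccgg
Lrrc4: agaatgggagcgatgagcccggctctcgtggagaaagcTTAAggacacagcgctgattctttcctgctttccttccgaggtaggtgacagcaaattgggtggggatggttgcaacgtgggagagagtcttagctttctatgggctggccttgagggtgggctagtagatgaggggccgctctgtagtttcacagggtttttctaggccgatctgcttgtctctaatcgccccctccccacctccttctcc
The Lrfn4 window held no TTAA and was 76.4% G or C, against a median of 51.2% over the windows of all genes. The Lrrc4 window held 1 TTAA, 212 bases before the start. Of 33469 windows, 50.1% held at least 1 TTAA, as did 5 of the 10 members (Lrfn1, Lrfn2, Lrrc4, LRRTM1 and Lrrtm2). Only the windows of Lrfn4, Lrrc4 and Lrrtm2 lay wholly before the gene. For the other 7 the window lay inside the annotated gene and is not printed. A match is a description of these letters and not a mapped insertion, since the table gives no positions.

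The table gave 5 counts per gene and library: independent insertions, those read as disrupting the gene, forward insertions, reverse insertions, and reads. Insertions within genes totalled 1287231 after and 1528935 before screening, and reads 2351082 after and 2824155 before. A gene's share is its insertions over that total, and a fold is the share after over the share before screening. A gene with at least 10 insertions over both libraries was called measured (11976 genes). It was called higher or lower when its shares were at least 4-fold apart and the 95% exact interval of the fold excluded 1. These intervals cover counting error only, and reads from PCR are not independent molecules. A count of 0 allows up to 3 insertions, a share of 0.000233% after and 0.000196% before screening.

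Of the 10 genes, 8 were hit in at least 1 library and 7 were measured: all 5 Lrfn genes, Lrrc4b and Lrrc4c. Of the 18156 genes of the whole table, 14320 were hit and 11976 measured. Among the measured members, 3 were called higher after screening (Lrfn2, Lrfn3 and Lrrc4b) against a background of 19.5% of all measured genes. One, Lrfn4, was called lower, against a background of 21.7%. At a limit of 2-fold in place of 4-fold, with no condition on the interval, 3 members were higher and 2 lower, with Lrfn1 joining Lrfn4, against backgrounds of 31.5% and 32.4%. The median log2 ratio of the 7 measured members, with 0.5 added to each count, was 0.60, and that of all measured genes was -0.01. Together the 10 genes held 1627 insertions after screening (0.126% of those in genes) and 663 before (0.0434%). Of the insertions after screening, 1099 (67.5%) lay in Lrfn3 and Lrrc4b alone.

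**Figure D1:**
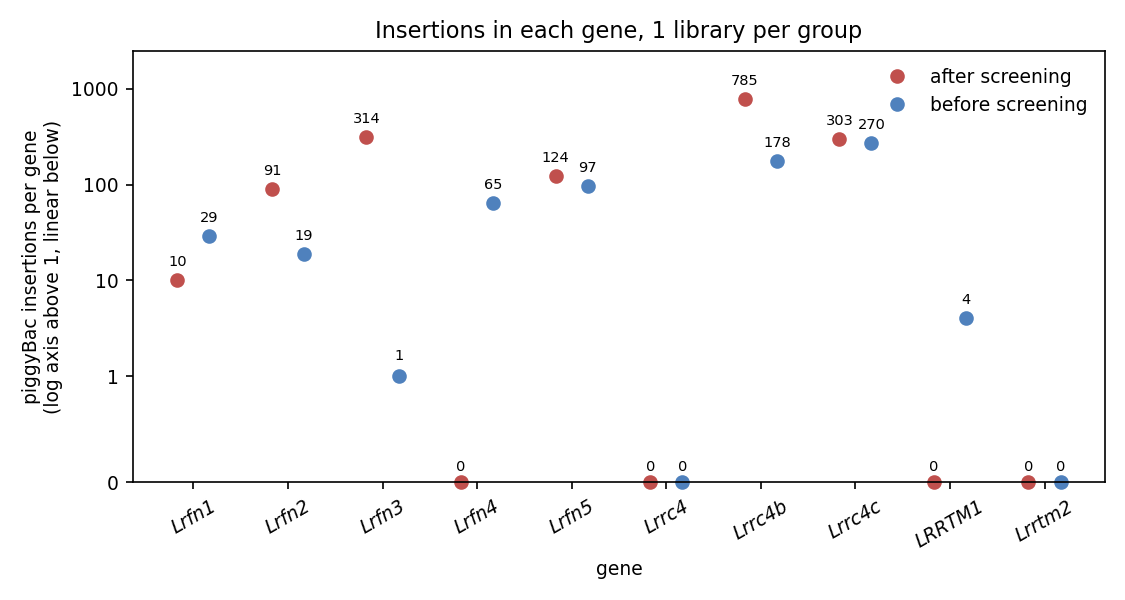
PiggyBac insertions in each of the 10 genes (y axis, counts, log scale above 1 and linear below), after screening in red and before screening in blue, with 1 library per group. Lrfn3 had 314 insertions after and 1 before screening, Lrfn4 had 0 after and 65 before, and Lrrc4 and Lrrtm2 had 0 in both.

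Lrfn3 (ENSRNOG00000020839) codes for a SALM whose tail lacks the PSD-95 binding end that some of its relatives carry. It had 314 insertions after and 1 before screening. The share was 373-fold higher after screening (95% interval 66.5 to 14778), a log2 ratio of 7.96. The wide interval comes from the single insertion before screening. By the log2 ratio it stood 71st of the 11976 measured genes, and by the lower end of the interval 14th. The study chose Lrfn3 among its candidates on these same libraries, so its direction is not independent evidence.

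Disrupting insertions of Lrfn3 numbered 314 after and 1 before screening, 366-fold higher (65.2 to 14495). Only reverse insertions were left out of the disrupting count and Lrfn3 had none, so this repeats its total and is not a second measure. The reads of Lrfn3 numbered 566 after and 1 before screening. The insertions after screening had 1.80 reads each, against a median of 1.38 over the 718 genes with insertion counts within 1.25 times its own, and 93.7% of those genes had fewer reads per insertion. The reads of Lrfn3 were thus not those of 314 insertions seen once each.

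Lrfn2 (ENSRNOG00000011803), the SALM that binds PSD-95 and is known from NMDA receptor clustering, had 91 insertions after and 19 before screening. The share was 5.69-fold higher (3.44 to 9.88), a log2 ratio of 2.48. In disrupting insertions it had 45 after and 11 before screening, a log2 ratio of 2.20, and in reads 108 after and 20 before, a log2 ratio of 2.67. All measures of Lrfn2 put it higher after screening. The 475 measured genes of its chromosome, 9, had a median log2 ratio of 0.58, with 25.7% called higher and 14.1% lower. Over all measured genes these values were -0.01, 19.5% and 21.7%. The part of the chromosome in the Lrfn2 result was not tested.

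Lrfn4 (ENSRNOG00000019356), another PSD-95 binding SALM, had 0 insertions after and 65 before screening. Its share was at least 14.4-fold lower after screening by the end of the exact interval, and 18.2-fold lower with 3 insertions taken as the floor of the library after screening. Of the insertions before screening, 55 of 65 were disrupting (84.6%, exact interval 73.5 to 92.4). Insertions with no counted orientation, 48 of the 65, counted as disrupting. Reads were 0 after and 81 before. Lrfn4 was the only member called lower under the 4-fold rule.

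Lrfn1 (ENSRNOG00000019869), the SALM best known for recruiting PSD-95 and glutamate receptors, had 10 insertions after and 29 before screening. The share was 2.44-fold lower (1.16 to 5.62), short of the 4-fold rule. Its disrupting insertions numbered 10 after and 14 before screening, 1.20-fold lower with an interval (0.496 to 3.02) that included 1. Lrfn1 was therefore lower in all insertions but not detectably so in the disrupting ones. The disrupting count was the total minus the reverse count, and Lrfn1 had 0 reverse insertions after and 15 before screening. After screening 9 of its 10 insertions had no counted orientation and so counted as disrupting.

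Lrfn5 (ENSRNOG00000005550), a SALM that binds the phosphatase LAR and its relatives, had 124 insertions after and 97 before screening, 1.52-fold higher (1.15 to 2.0). Disrupting insertions numbered 67 after and 47 before, and reads 160 after and 146 before. Its read share was 1.32-fold higher (1.05 to 1.66). The interval of Lrfn5 excluded 1, but the fold was under 2.

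Among the netrin-G ligands, Lrrc4b (NGL-3, ENSRNOG00000019418), which binds LAR, was hit most often of all 10 genes, with 785 insertions after and 178 before screening. The share was 5.24-fold higher (4.45 to 6.20), a log2 ratio of 2.39, the tightest interval of the 3 members called higher. Disrupting insertions numbered 427 after and 91 before (log2 ratio 2.44), and reads 1132 after and 247 before (log2 ratio 2.46). The 3 measures of Lrrc4b gave nearly the same log2 ratio.

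Lrrc4c (NGL-1, ENSRNOG00000029798), which binds netrin-G1, had 303 insertions after and 270 before screening, 1.33-fold higher (1.13 to 1.58). Disrupting insertions numbered 157 after and 143 before, and reads 385 after and 362 before. Lrrc4 (NGL-2, ENSRNOG00000008098), which binds netrin-G2, had 0 insertions in both libraries, so no fold is given. The 3 netrin-G ligand genes thus had 1 gene called higher, 1 not called and 1 without insertions.

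LRRTM1 (ENSRNOG00000006093), a neurexin-binding protein, had 0 insertions after and 4 before screening, with 0 reads after and 6 before. That is under the minimum of 10 insertions, and it was not measured. Lrrtm2 (ENSRNOG00000047085), another neurexin ligand, had 0 insertions in both libraries. For Lrrc4, Lrrtm2 and LRRTM1, a difference between the libraries was not detectable at this depth.

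**Figure D2:**
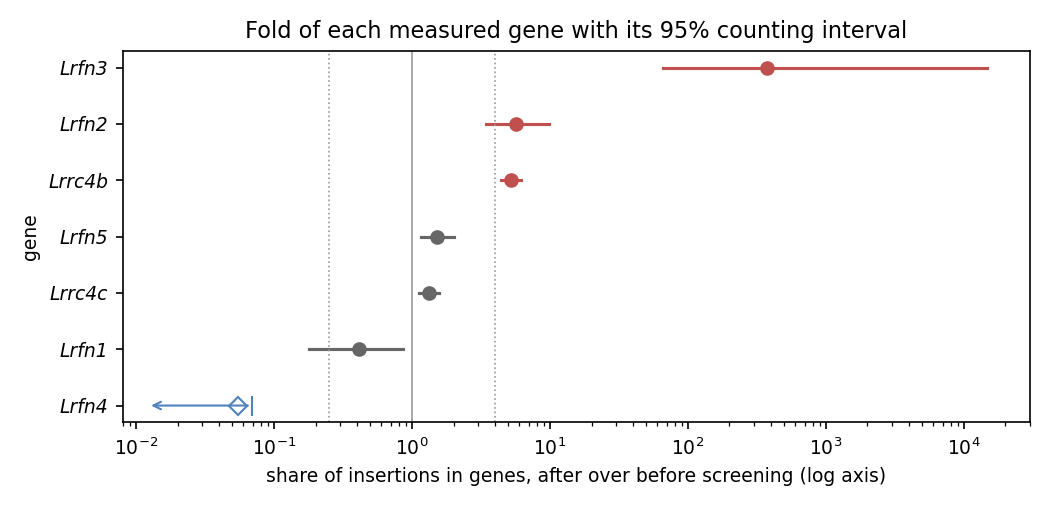
Fold of each measured gene, the share of insertions after over before screening (x axis, log scale), with its 95% counting interval as a line; red genes were called higher, blue lower and grey neither, and dotted lines mark 4-fold. Lrfn4 is drawn at 18.2-fold lower, with 3 insertions as the floor (diamond), and an arrow from the upper end of its interval, as it had 0 insertions after screening. Lrfn3, Lrfn2 and Lrrc4b lie to the right of the 4-fold line.

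The orientation counts divide a gene's insertions into forward, reverse and those with no counted orientation. For each member, the disrupting count of both libraries was the total minus the reverse count, so that insertions without an orientation counted as disrupting. Over all genes the disrupting share was 57.6% after and 56.5% before screening, and the forward share of oriented insertions 49.5% after and 49.6% before. In the genes where this also held, 16.3% of insertions after and 13.9% before screening had no counted orientation. The table does not state what sets those insertions apart.

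All 314 insertions of Lrfn3 after screening had no counted orientation (100%, exact interval 98.8 to 100), while its 1 insertion before screening was forward. Among 1374 genes with 200 to 500 insertions after screening and this relation of counts, a range chosen after seeing the data, 12 (0.873%) had no oriented insertion. Before screening it was 5 of 1529 (0.327%). The cause of this pattern in Lrfn3 was not tested.

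Of the 10 insertions of Lrfn1 after screening, 9 had no counted orientation (90%, 55.5 to 99.7), against 0 of 29 before (exact interval 0 to 11.9). Its 29 insertions before screening were 14 forward and 15 reverse. Of the 65 insertions of Lrfn4 before screening, 48 had none (73.8%, 61.5 to 84.0), with 7 forward and 10 reverse. Among the members hit, the insertions without orientation were thus the majority in Lrfn3 and Lrfn1 after screening and in Lrfn4 and LRRTM1 before.

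The other measured members were mostly oriented. In Lrrc4b 59 insertions (7.52%, 5.77 to 9.59) after and 6 (3.37%, 1.25 to 7.19) before screening had no counted orientation, and the intervals overlapped. In Lrrc4c it was 2 (0.660%) after and 11 (4.07%) before. The oriented insertions of Lrrc4b were 368 forward and 358 reverse after screening, and 85 forward and 87 reverse before. The oriented insertions of Lrrc4c were 155 forward and 146 reverse after screening, and 132 forward and 127 reverse before.

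Forward and reverse counts stood close together in the members with at least 10 oriented insertions. The squared difference of the 2 counts over their sum averages 1 where each insertion takes its orientation independently. Over genes with at least 20 oriented insertions it averaged 0.369 after and 0.345 before screening, less than 1. In the members with at least 10 oriented insertions it ran from 0.011 to 0.405 in 4 genes after and from 0 to 0.529 in 6 genes before. Insertions of a gene may therefore not be independent, and the intervals above may be too narrow.

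**Figure D3:**
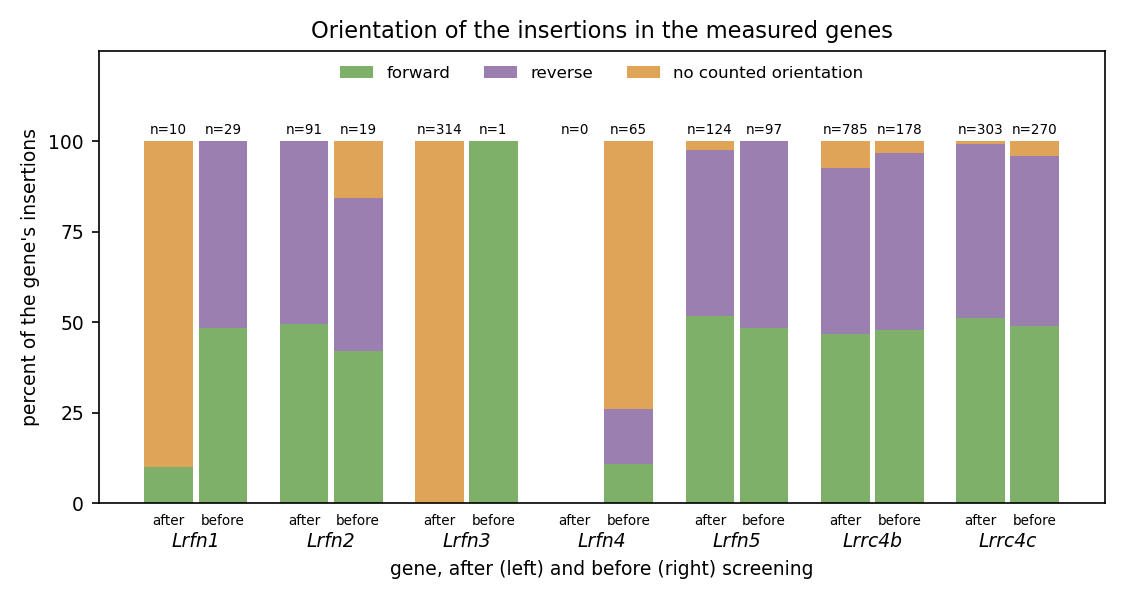
Share of each measured gene's insertions (y axis, percent) that were forward (green), reverse (purple) or had no counted orientation (orange), after screening on the left of each pair and before screening on the right, with the number of insertions above each bar. All 314 insertions of Lrfn3 after screening were without orientation, while Lrrc4b was mostly oriented in both libraries.

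Several members lie over other genes in RefSeq GRCr8, and a table without positions cannot tell which gene of such a pair an insertion struck. Pc, the gene of pyruvate carboxylase, overlaps Lrfn4 and had 20 insertions after and 200 before screening, 8.42-fold lower (5.31 to 14.1). Ctnna1, the gene of an alpha-catenin, overlaps Lrrtm2 and had 167 after and 51 before, 3.89-fold higher (2.83 to 5.43). Ctnna2 overlaps LRRTM1 and had 215 after and 469 before, 1.84-fold lower (1.56 to 2.17). Snd1 overlaps Lrrc4 and had 274 after and 455 before, 1.40-fold lower (1.20 to 1.63). So for Lrfn4 both genes of the overlapping pair were called lower, and for Lrrc4 and Lrrtm2 the overlapping gene was hit while the member was not. Their part in the Lrfn4 result was not tested.

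Of the nearest protein-coding genes in the table, those given here were chosen after their values were seen, and some were called and others not. Beside Lrfn3, Wdr62 had 75 insertions after and 165 before screening, and Capns1 had 0 after and 2 before. Beside Lrrc4b, Syt3 had 48 after and 51 before, and RGD1309036 had 0 after and 387 before. Beside Lrfn4, Syt12 had 3 after and 321 before, and Rce1 had 70 after and 71 before. Beside Lrfn2, Unc5cl had 185 after and 45 before, 4.88-fold higher, and Mocs1 had 99 after and 197 before. Beside Lrfn1, Samd4b had 3 after and 317 before. Beside Lrfn5, Mia2 had 212 after and 37 before, 6.81-fold higher. Of all 40 neighbours looked at, 20 were measured, 2 were called higher (Unc5cl and Mia2) and 3 lower (Samd4b, Syt12 and RGD1309036), beside the backgrounds of 19.5% and 21.7%.

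A list of 23 related leucine-rich repeat genes (the Slitrk, Flrt, Lingo, Amigo, Lrrn and Elfn families with Lrrtm3 and Lrrtm4) had 22 in the table and 14 measured. Of these, 4 were called higher and 2 lower, beside the backgrounds of 19.5% and 21.7%. Slitrk4 had 244 insertions after and 11 before screening (26.3-fold, 14.5 to 53.5), Flrt3 20 after and 1 before (23.8-fold, 3.80 to 985), and Lingo1 45 after and 7 before (7.64-fold, 3.42 to 20.1). Amigo3 had 111 after and 0 before screening, at least 35.1-fold higher by the end of the interval and 43.9-fold with 3 insertions as the floor, and all 111 had no counted orientation. The same held for all insertions of Flrt1 (190 after and 427 before) and Slitrk5 (41 after and 48 before), named after their values were seen. Neither Flrt1 nor Slitrk5 was called. Lower were Lrrn2, with 10 after and 171 before (14.4-fold lower, 7.64 to 30.6), and Lingo4, with 3 after and 28 before (7.86-fold lower, 2.43 to 40.4). The median log2 ratio of the list was 0.24, and it ran from 0.02 (at least 50 insertions, or no minimum) to 0.59 (reads) over the alternatives.

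Lrrtm3, which binds neurexins as Lrrtm2 does, had 100 insertions after and 87 before screening, 1.37-fold higher (1.01 to 1.84). Its reads were 432 after and 110 before, a log2 ratio of 2.23 where that of its insertions was 0.45. Lrrtm4 had 79 insertions after and 143 before, 1.52-fold lower (1.15 to 2.03). Neither of these neurexin ligands was called.

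Of 21 partners of these proteins, among them neurexins, neuroligins, receptor phosphatases, netrin-Gs and scaffold and glutamate receptor genes, 20 were in the table and all 20 were measured. One was called higher and 0 lower, against the backgrounds of 19.5% and 21.7%. Nlgn3, the gene of a neuroligin, had 152 insertions after and 13 before screening (13.9-fold, 7.88 to 26.7). At 2-fold, 3 were higher and 0 lower, against backgrounds of 31.5% and 32.4%. In reads, Nrxn2, a neurexin gene named after its values were seen, had 5686 after and 1348 before screening, a log2 ratio of 2.34 where that of its insertions was 0.29 (940 after and 912 before). The median log2 ratio was 0.16.

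**Figure D4:**
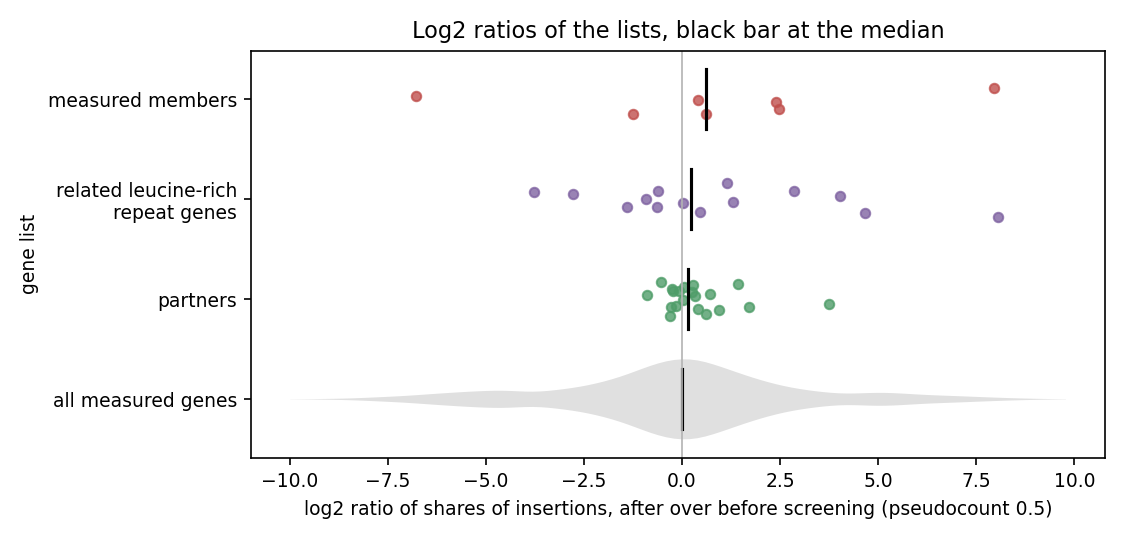
Log2 ratios of the share of insertions, after over before screening with 0.5 added to each count (x axis), of the measured members, the related leucine-rich repeat genes, the partners and all 11976 measured genes (violin), with a black bar at each median. The medians were 0.60, 0.24, 0.16 and -0.01, and the members ran from -6.79 for Lrfn4 to 7.96 for Lrfn3.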

How the data were processed

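The deposited table held 48 columns. Per the file headers and the study's methods, the authors amplified insertion sites by splinkerette PCR, trimmed reads with the FASTX toolkit and used HaSAPPy to align them and assign insertions to genes. They deposited raw counts per gene, not scaled to depth. The methods name mouse assembly mm10 while the table has rat Ensembl identifiers, so no insertion position is given. HISAT2 2.0.5 and featureCounts 1.5.0-p3 appear in the submitters' processing notes, and the labels describe an mRNA protocol. The column names end in a number the labels do not explain, and the study speaks of more than 1 mutant library. The 10 count columns of the 2 libraries were used. Another 34 columns were not used, among them the authors' ranks, folds and Fisher scores. A row of no gene, 57.9% of all insertions after and 57.3% before screening, was left out.

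Shares and exact intervals were computed with scipy as described beside the results and tested on simulated data. The simulated counts were independent, so that test cannot show how the intervals hold where insertions are not independent. The alternatives were reads, disrupting insertions, median ratio scaling, a pseudocount of 1, at least 50 insertions, no minimum and a 2-fold rule. The members and lists were chosen with earlier results of these data known. Named were all members, their overlapping genes, Lrrtm3, Lrrtm4 and the called genes of both lists, and other genes are said to be chosen after their values were seen. Sequences are from RefSeq GRCr8, which matched all 10 members.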

Additional observations from a re-analysis of the deposited data

How the results depend on the processing

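No paired analysis was possible because both groups were single libraries. The same 3 members higher and Lrfn4 lower were called under the 8 alternatives run for them (reads, disrupting insertions, median ratio scaling, at least 50 insertions, no minimum, the 2-fold rule, halved counts and counts of 0 at their floor), and with the 2-fold rule Lrfn1 joined them, for 2 lower members. No minimum and the 2-fold rule can only add calls, and each called member had at least 50 insertions in 1 library. Those settings and the minimum of 50 could therefore not remove a call. Placing counts of 0 at their floor could not change the 3 members called higher, as none had a count of 0. The shift by median ratio scaling, given below, was too small to remove the call of any member. For Lrfn3 the disrupting counts were the same as those of all insertions. Of 28 log2 ratios of members under 4 alternatives (reads, disrupting insertions, median ratio scaling and a pseudocount of 1), all stayed within their counting interval. This says little for Lrfn4, whose interval had no lower end, and for Lrfn3, whose fold interval ran from 66.5 to 14778. The log2 ratio of Lrfn1 went from -1.24 in all insertions to -0.25 in disrupting ones, which leave out reverse insertions but keep those with no counted orientation. With at least 50 insertions, 1300 genes were called higher and 1466 lower, as fewer genes were tested. With the 2-fold rule, 3773 genes were higher and 3885 lower before the interval was required, and 3639 and 3749 with it. Median ratio scaling shifted all log2 ratios by -0.06. Halving every count and placing counts of 0 at their floor were added after seeing the data. With 1 insertion before screening the interval of Lrfn3 was wide, and LRRTM1 was under the minimum. The median of the related list ran from 0.02 to 0.59.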
